A study of Ovis aries with 12 samples.

Results

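The genes with the cattle identifiers ENSBTAG00000011985, ENSBTAG00000021211 and ENSBTAG00000038540 are described across 12 RNA sequencing libraries of reproductive tissue. Of 24616 genes counted, 14839 were tested on the difference between high and low fertility averaged over both tissues. The 3 genes were selected as those called in that contrast, so their high-minus-low differences are given as values without a test. The libraries are labelled as sheep, while the gene column is headed as bovine and the processing notes name a cattle build. Which species the reads came from could not be settled, and any effect of counting sheep reads on cattle genes was not tested. The libraries formed 4 groups of 3. The low-fertility groups were Co-L and T-L, and the high-fertility groups were Co-H and T-H. The 6 T libraries were labelled endometrium. Ovary was the label of 5 Co libraries and corpus luteum that of Co-H 3, while the file headers call all 6 CL. No treatment, breed or age is given in the labels, what Co and T abbreviate is not stated, and the design text speaks of pooled samples, 6 of them controls and 6 treated, without assigning them. Separate animals behind the replicates are not stated either, so p-values cover the spread between libraries, which may be technical.

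The corpus luteum forms in the ovary from the ovulated follicle and secretes progesterone, the hormone that prepares the uterus for pregnancy. The endometrium, the inner lining of the uterus, responds to that progesterone and is the site where the embryo attaches. Both tissues of one animal thus take part in establishing a pregnancy. The files do not pair identifiers with gene names, and the sheep gene table used for names has no Ensembl identifiers, so no gene of these files could be looked up in it. The function, position and length of the 3 genes are therefore not given. Without lengths, levels are compared mainly between libraries for 1 gene. Ranks among the tested genes and sets of genes of similar abundance rest on CPM not adjusted for gene length. The tissue labels could not be checked against marker genes for the same reason.

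Total counts per library were 9627378 to 17852552, and levels are given as CPM, the count scaled to library size, adjusted with edgeR's TMM factors for composition. These factors were higher in Co-H 2 (0.977) and Co-H 3 (1.00) than in the other 4 Co libraries (0.745 to 0.864), and 1.03 to 1.23 in T. Part of each Co difference below therefore moves with the scaling, and ratios on unscaled library totals are given beside it. All 3 genes were among the 14839 that passed the filter on low counts. In bulk tissue, fewer cells of a type and less RNA per cell cannot be told apart.

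ENSBTAG00000011985 was the gene that stood higher with high fertility. In Co it was close to the lower end of the measured genes in every low-fertility library, at 1.18 CPM in Co-L 1, 0.981 in Co-L 2 and 1.86 in Co-L 3. In the high-fertility libraries it stood at 17.9 CPM in Co-H 1, 27.8 in Co-H 2 and 27.4 in Co-H 3. The 2 groups lay far apart, with the lowest Co-H library 9.63-fold above the highest Co-L library. These levels rested on 13 to 19 counts per Co-L library and 192 to 484 per Co-H library. The exact 95% Poisson intervals, which cover counting error only, reached at most 2.90 CPM in Co-L and went no lower than 15.5 CPM in Co-H. Only 11.5% to 15.5% of the tested genes were lower than this gene in a Co-L library, and in a Co-H library 51.1% to 61.3% were.

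In T the same gene was less evenly placed within its groups. It stood at 10.7 CPM in T-L 1, but at 2.80 in T-L 2 and 2.95 in T-L 3. In T-H it stood at 24.5 CPM in T-H 1, 11.4 in T-H 2 and 24.7 in T-H 3. The groups did not overlap, yet the gap between T-L 1 and T-H 2 was 1.06-fold and lay within counting error, with intervals of 9.18 to 12.5 and 9.81 to 13.3 CPM. The log2 change from T-L to T-H was 1.87 (SE 0.50), and without T-L 1 it was 2.79. In Co the log2 change was 4.20 (SE 0.58), and leaving out any single library gave 4.07 to 4.56. As ratios of mean CPM these are 18.2-fold in Co and 3.67-fold in T, or 22.0-fold and 3.50-fold on library totals. The order of the group means was Co-L, T-L, T-H, Co-H, and in that order only T-H and Co-H overlapped.

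**Figure D1:**
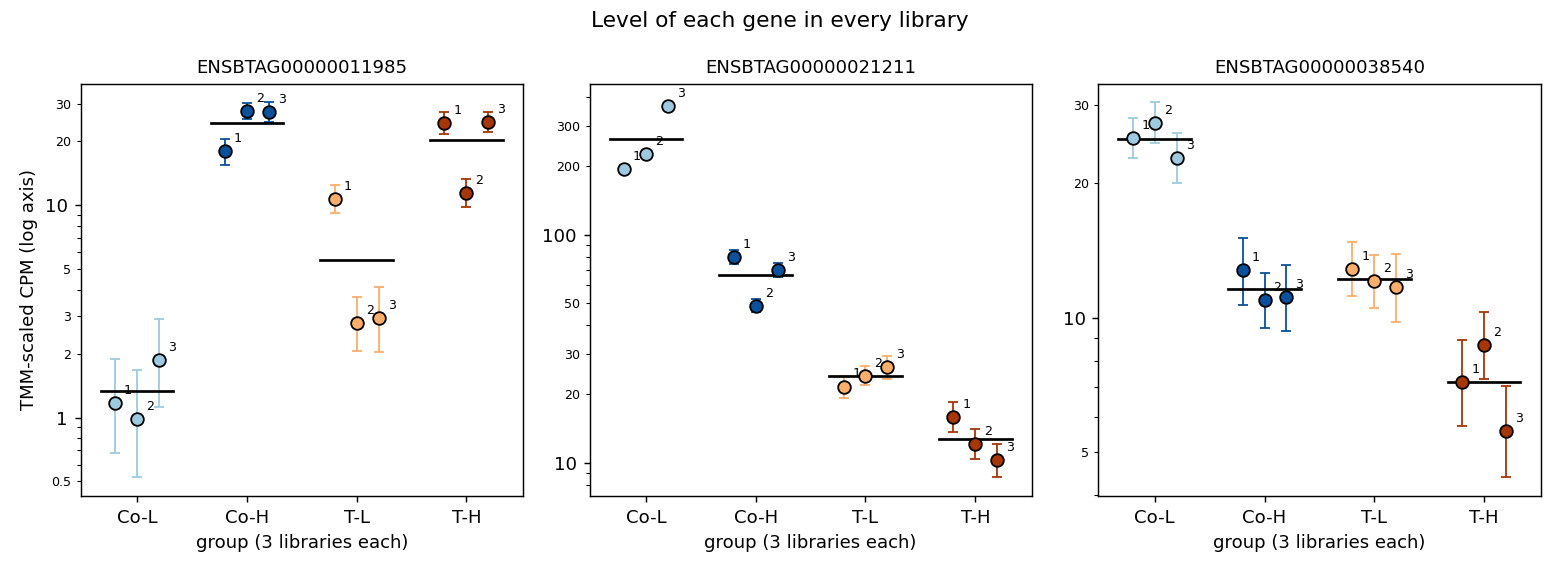
TMM-scaled CPM (vertical log axis, a separate range for each gene) in each of the 12 libraries, by group along the horizontal axis. Points are libraries numbered by replicate, error bars are exact 95% Poisson intervals of the count, and black lines are group means of 3 libraries. ENSBTAG00000011985 is near 1 to 2 CPM in Co-L and at 17.9 CPM or more in Co-H, while T-L 1 and T-H 2 nearly meet.

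ENSBTAG00000021211 stood lower with high fertility and was far more abundant in Co than in T. Its level in Co-L was 195 CPM in Co-L 1, 225 in Co-L 2 and 368 in Co-L 3, where 94.4% to 96.9% of tested genes were lower. In Co-H it was 79.8 CPM in Co-H 1, 48.8 in Co-H 2 and 70.1 in Co-H 3, where 75.2% to 83.9% were lower. The 2 groups were separated by a 2.44-fold gap, and Co-L 3 was the highest library by a wide margin. In T-L it was 21.6, 24.1 and 26.2 CPM in replicates 1, 2 and 3, and in T-H 15.9, 12.1 and 10.3 CPM. The T groups were separated by a 1.36-fold gap between T-L 1 and T-H 1. The order of the group means was T-H, T-L, Co-H, Co-L, and no neighbouring groups in that order overlapped.

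The log2 change of ENSBTAG00000021211 from low to high fertility was −1.99 (SE 0.26) in Co and −0.91 (SE 0.26) in T. Mean CPM in the low-fertility group was 3.97-fold that of the high-fertility group in Co and 1.88-fold in T, or 3.33-fold and 1.99-fold on library totals. Without Co-L 3 the change in Co was −1.60. Counting error contributed little in Co, where the gene had 850 to 3758 counts in each library. In T it had 136 to 413, and the 95% Poisson interval of T-H 3 was 8.61 to 12.1 CPM. The intervals of the nearest T libraries did not overlap, at 19.3 to 24 CPM in T-L 1 and 13.6 to 18.4 in T-H 1.

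ENSBTAG00000038540 also stood lower with high fertility, by less and with the tightest replicates of the 3 genes. It was 25.3, 27.4 and 22.8 CPM in Co-L 1, 2 and 3, and 12.8, 10.96 and 11.1 CPM in Co-H 1, 2 and 3. It was 12.9, 12.1 and 11.7 CPM in T-L 1, 2 and 3, and 7.19, 8.70 and 5.58 CPM in T-H 1, 2 and 3. High and low libraries did not overlap in either tissue, with gaps of 1.78-fold in Co and 1.35-fold in T. The gene had 137 to 366 counts in each Co library and 74 to 207 in each T library. In T the 95% Poisson intervals of the nearest libraries overlapped, at 9.79 to 13.9 CPM in T-L 3 and 7.28 to 10.3 in T-H 2. The groups T-L and Co-H overlapped in TMM-scaled CPM. On library totals they did not, at 13.6 to 15.1 CPM in T-L and 10.7 to 11.1 in Co-H. Otherwise the order was T-H lowest and Co-L highest.

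For ENSBTAG00000038540 the log2 change was −1.12 (SE 0.17) in Co and −0.77 (SE 0.18) in T. Mean CPM in low fertility was 2.17-fold that in high fertility in Co and 1.71-fold in T, and on library totals the values were 1.83-fold and 1.79-fold. The larger difference in Co than in T thus appeared with TMM scaling and nearly vanished on library totals. Within groups, the SD of log2 CPM was 0.18 for this gene, 0.35 for ENSBTAG00000021211 and 0.68 for ENSBTAG00000011985. Of the 4744 genes within 2-fold of its mean CPM over all 12 libraries, 18.1% had a smaller SD than ENSBTAG00000038540, while 90.9% of the 4584 genes near ENSBTAG00000011985 had a smaller SD than that gene.

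The values that chose the 3 genes were those of the high-minus-low contrast over both tissues. The log2 changes were 3.03 (SE 0.38), −1.45 (SE 0.19) and −0.94 (SE 0.12) in the order above, each with an edgeR adjusted p of 0.0449, just inside the threshold of 0.05. The next 3 genes by p did not pass, each with an edgeR adjusted p of 0.0938, and all 3 were lower in high fertility. The 3 called genes were 0.0202% of those tested, 1 higher (0.00674%) and 2 lower (0.0135%). The calls and ranks under other settings that follow repeat the contrast that chose the genes, on the same libraries. They show how far the choice depends on the setting and are no independent support for it. DESeq2 called 571 of the 14839 genes, these 3 among them at ranks 1 to 3. Without a count filter and on library totals edgeR called 2 genes, and ENSBTAG00000038540 was not among them (edgeR adjusted p = 0.0659 and 0.172). With the replicate number as a block it called 0, with an edgeR adjusted p of 0.0799 for each of the 3 genes. With 1 library left out, ENSBTAG00000011985 and ENSBTAG00000021211 each passed in 3 of 12 fits and ENSBTAG00000038540 in 2. Those 3 of 12 were without Co-H 1, T-L 1 or T-H 2 for the first gene and without Co-L 1, Co-L 3 or Co-H 1 for the second, while ENSBTAG00000038540 passed without Co-H 1 or T-H 2. In the other 11 fits the 3 genes ranked between 1 and 11 by p, and without Co-H 1, where 1495 genes passed, they ranked 140, 166 and 173.

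**Figure D2:**
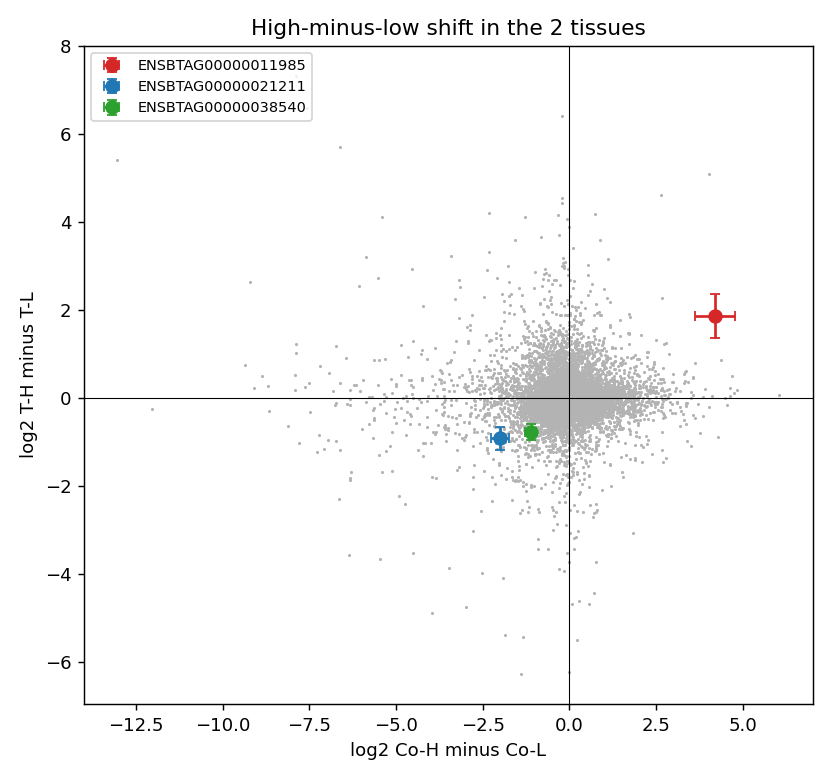
Log2 change from low to high fertility in Co (horizontal axis) and in T (vertical axis) for all 14839 tested genes in grey, with the 3 genes in colour and bars of 1 SE from the edgeR fit. ENSBTAG00000011985 lies alone at 4.20 and 1.87, while ENSBTAG00000021211 at −1.99 and −0.91 and ENSBTAG00000038540 at −1.12 and −0.77 have 59 and 148 other genes at least as low on both axes.

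The distance of each gene from others of its abundance was counted next, taking genes whose mean CPM lay within 2-fold. In Co, 4320 genes were within 2-fold of the 12.9 CPM of ENSBTAG00000011985, and their median absolute log2 change was 0.31. Of these, 4 (0.0926%) were higher in Co-H by at least as much, and 26 changed by as much in either direction. The 4 became 2 without Co-L 3 and 3 to 5 without any other Co library. In T, 17 of 4743 (0.358%) were higher in T-H by at least as much, beside a median absolute log2 change of 0.14. No gene of similar abundance over all 12 libraries (0 of 4584), and no other of the 14839 tested, was higher by at least as much in both tissues. The T count turned on single libraries and was 5 without T-L 1 or T-H 1, 30 without T-L 2, 36 without T-L 3 and 44 without T-H 3.

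For ENSBTAG00000021211, 4 of 1771 genes of similar abundance in Co (0.226%) were lower in Co-H by at least as much. In T, where the gene was less abundant, 38 of 5212 (0.729%) were. Both conditions together were met by 4 of 3135 genes (0.128%), and by 59 of all tested genes, most of them thus outside this abundance range. The count in Co was 1 without Co-L 3, 10 without Co-L 1, 9 without Co-L 2, 6 without Co-H 1 and 7 without either Co-H 2 or Co-H 3. The count in T was 58 without T-H 2 and 75 without T-H 3. The count in both was 1 without T-H 2 and 2 without T-L 3.

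ENSBTAG00000038540 had more company. In Co, 118 of 4785 genes of similar abundance (2.47%) were lower in Co-H by at least as much, and in T 72 of 4187 (1.72%) were. Both held for 20 of 4744 genes (0.422%) and for 148 of all tested genes. The count in Co was 59 without Co-L 3 and 189 without Co-L 2, and that in T was 192 without T-H 3. The count in both was 11 without Co-L 3, 33 without T-L 1 and 40 without T-H 3. The call over both tissues takes the spread into account, which a count by size of change alone does not. These counts describe genes chosen for their change and are no test of it.

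**Figure D3:**
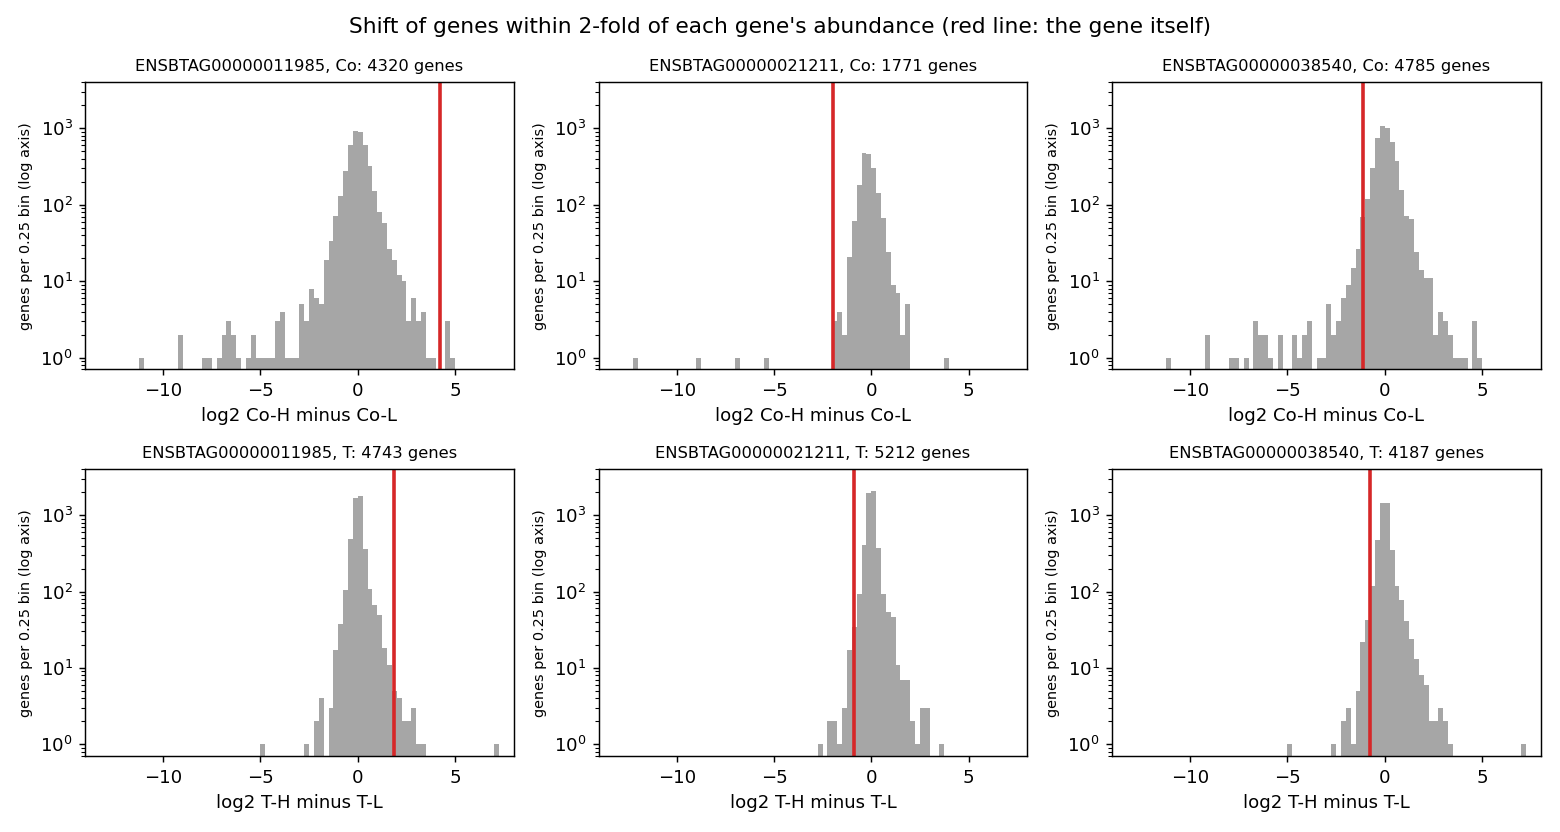
Histograms of the log2 change from low to high fertility in Co (upper row) and T (lower row) for genes within 2-fold of each gene's mean CPM in that tissue, with the number of genes per bin on a vertical log axis. The red line marks the gene itself. It lies beyond all but 4 genes on its side for ENSBTAG00000011985 and for ENSBTAG00000021211 in Co, and further inside the tail for ENSBTAG00000038540.

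The width of the gap between high and low libraries was also counted, over all 14839 tested genes and not only those of similar abundance. High and low libraries did not overlap in either tissue, with the high-fertility libraries above, for 0.546% of the tested genes, and with them below for 0.849%. Gaps at least as wide as those of ENSBTAG00000011985 were found in 2 other genes in Co, 315 in T and 0 in both. For ENSBTAG00000021211 the numbers were 18, 125 and 1, and for ENSBTAG00000038540 they were 43, 130 and 2. In T, where T-L 1 and T-H 2 nearly met, ENSBTAG00000011985 thus had the narrowest gap of the 3 genes although its mean changed most.

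The place of Co-H 1 between Co-L and the other Co-H libraries was described over many genes. Among 2024 genes at least 2-fold apart between Co-L and the mean of Co-H 2 and Co-H 3, Co-H 1 had a median position 29.3% of the way from Co-L to those libraries (quartiles 1.15% and 66.8%). For the 3 genes it had moved further, 85.5% of the way for ENSBTAG00000011985, 78.7% for ENSBTAG00000021211 and 82.2% for ENSBTAG00000038540. The 2024 genes were chosen on Co-H 2 and Co-H 3 without Co-H 1, which by itself favours a position of Co-H 1 short of those libraries. The same position was not computed for Co-H 2 or Co-H 3. As the 3 genes were chosen with Co-H 1 among the high-fertility libraries, the positions are a description and not comparable on equal terms. Co-H 3, the only library labelled corpus luteum, was within 1 CPM of Co-H 2 for ENSBTAG00000011985 and ENSBTAG00000038540 and lay between Co-H 1 and Co-H 2 for ENSBTAG00000021211.

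The difference between the tissues is separate from the contrast that chose the genes and could be tested, although the test uses the same estimate of spread. ENSBTAG00000021211 was lower in T, at −2.92 on the log2 scale with an SE of 0.19 (edgeR adjusted p = 2.48e-07), and all 6 T libraries lay below all 6 Co libraries. ENSBTAG00000038540 was lower in T as well, by −0.87 (SE 0.12, edgeR adjusted p = 8.77e-05). Its highest T library, at 12.9 CPM, lay above all 3 Co-H libraries. On library totals this value was −0.44 (edgeR adjusted p = 0.0112). Calls between the tissues were common, with 64.4% of tested genes called, 31.7% higher and 32.7% lower in T, so 2 of 3 genes called is near the background.

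ENSBTAG00000011985 did not pass between the tissues, at 0.89 on the log2 scale with an SE of 0.37 (edgeR adjusted p = 0.0502). The value lay at the threshold and passed with other scalings or tools, with edgeR adjusted p = 0.0433 for size factors by relative log expression, 0.0364 without a count filter and 0.00812 on library totals, and with a DESeq2 adjusted p of 0.0202. Without Co-L 3, T-L 2, T-L 3 or T-H 2 it also passed, at log2 differences of 1.11 to 1.13, and without T-L 1 the difference was 0.50. Within low fertility the T libraries were higher than the Co libraries by 2.06 (SE 0.56) on the log2 scale, and within high fertility the difference was −0.27 (SE 0.47). The average over fertility lies between these 2 values.

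Whether the shift with fertility differed between the tissues was tested in the same fit. For ENSBTAG00000011985 the shift in T minus that in Co was −2.34 on the log2 scale (SE 0.74, edgeR adjusted p = 0.257), and for ENSBTAG00000021211 it was 1.08 (SE 0.37, edgeR adjusted p = 0.257). For ENSBTAG00000038540 it was 0.35 (SE 0.25, edgeR adjusted p = 0.487). The shift was nearer 0 in T than in Co for all 3, and none of the differences passed. Genes of similar abundance also shifted less in T, so this is not particular to the 3 genes. Their median absolute log2 change was 0.29 to 0.31 in Co and 0.12 to 0.16 in T. On library totals the difference for ENSBTAG00000038540 was 0.04. In edgeR 0 of 14839 genes passed (0%), while 2423 (16.3%) had an unadjusted p under 0.05, among them ENSBTAG00000011985 (0.00847) and ENSBTAG00000021211 (0.0131). DESeq2 called 107 genes and none of the 3, and edgeR without Co-H 1 called 1237, also none of the 3. A missed threshold here does not show that the shifts were equal.

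**Figure D4:**
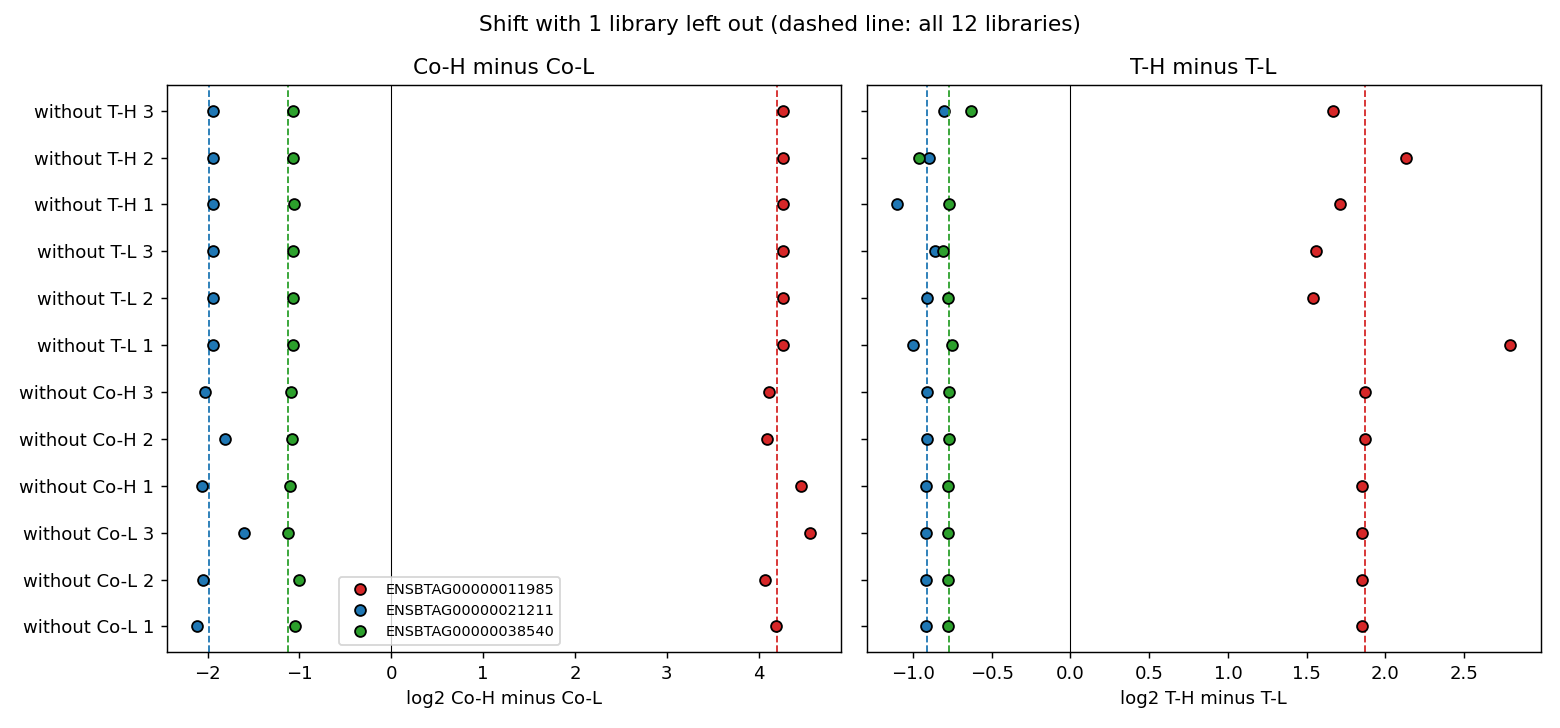
Log2 change from low to high fertility in Co (left) and T (right), horizontal axes, for the 3 genes, each row leaving out 1 of the 12 libraries. Dashed lines mark the values with all 12 libraries. No point crosses 0, which was to be foreseen because high and low libraries do not overlap in either tissue. The widest departure is ENSBTAG00000011985 in T without T-L 1, at 2.79 against 1.87.

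The 3 genes were also compared with each other and with the rest over the 12 libraries, as a description. With each tissue's mean subtracted, log2 CPM of ENSBTAG00000011985 had a Pearson's r of −0.888 with ENSBTAG00000021211 and −0.930 with ENSBTAG00000038540, and the latter 2 had an r of 0.888. Such values follow from how the genes were chosen. With each group's mean subtracted instead, which leaves only the variation between replicates, r was −0.0201, −0.385 and 0.0726.

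The gene with the most similar pattern to ENSBTAG00000011985 over the 12 libraries was ENSBTAG00000024983, with an r of 0.90. It was much flatter, with a mean of 2.35 ± 0.445 CPM for Co-L and 4.11 ± 0.630 CPM for Co-H (SD, n = 3 each). The T-L mean was 2.97 ± 0.465 CPM and the T-H mean 3.66 ± 0.228 CPM. Its log2 changes were 0.80 in Co and 0.30 in T. The closest gene to ENSBTAG00000038540 had an r of 0.940, and 8 genes exceeded 0.9. For ENSBTAG00000021211 the highest r was 0.977 and 678 genes exceeded 0.9. With the tissue means subtracted, the numbers over 0.9 were 34 for ENSBTAG00000021211 and 5 for each of the other 2 genes. All these correlations share the same libraries and scaling factors.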

How the data were processed

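Each library has 1 deposited file of raw counts, keyed by cattle gene identifiers per the file headers. Per the submitters' processing notes the authors ran Bowtie 0.12.2, and 7 of the 12 libraries carry the build bosTau8. How reads were counted (tool, annotation, strand, filters) was not given in the sources used here, so reads shared with near-identical or overlapping genes cannot be told apart. A blank line in the file of Co-L 1 was skipped, and the first gene of T-H 3 was read from its header line.

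The 3 genes, the lists and the alternatives were chosen with earlier results of these data known. The planned cell type markers were not run, as 0 identifiers matched a symbol. Named genes are the 3 members and the gene most similar in pattern to ENSBTAG00000011985.

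Levels are CPM scaled by TMM, edgeR's trimmed mean of log ratios. In R 4.3.3 with edgeR 4.0.16, genes were filtered with filterByExpr (minimum count 10), scaled by TMM and fitted with 1 mean per group over 12 libraries. Quasi-likelihood p-values were adjusted by Benjamini-Hochberg over all 14839 genes and called under 0.05. SEs are the log2 change divided by the square root of F. Log2 CPM used a prior count of 2. DESeq2 1.42.0 was an alternative on the same filtered genes. The fit was tested on simulated data with 200 changed genes. It recovered 58% of 2-fold and 92.5% of 4-fold differences between the tissues. For a difference of the high-minus-low shift between the tissues it recovered 0.5% at 2-fold and 61% at 4-fold. Replicate pairs had a chi-square per degree of freedom of 17.9 to 136, so none agreed within sampling noise. Alternatives were other size factors, no count filter, replicate blocks, single-tissue fits, other abundance windows and leaving out each library.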

Additional observations from a re-analysis of the deposited data

How the results depend on the processing

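No high-minus-low change of the 3 genes turned sign in Co, in T or over both tissues under any alternative run. This is no support for the changes, as the genes were chosen on them. High and low libraries also did not overlap in either tissue, so leaving out 1 library could hardly reverse the order of the means. Changes that moved by more than the SD between replicates were these. On library totals, a setting chosen after seeing the data, ENSBTAG00000038540 stood at −0.87 in Co. With 1 library left out, ENSBTAG00000021211 ranged from −2.11 to −1.60 in Co, ENSBTAG00000011985 from 1.54 to 2.79 in T and ENSBTAG00000038540 from −0.96 to −0.63 in T. The tissue difference of ENSBTAG00000011985, 0.89 and not called, was called at 0.92 with RLE size factors, 0.97 without a count filter, 0.92 in DESeq2 and 1.30 on library totals, and ranged from 0.50 to 1.13 with 1 library left out (edgeR adjusted p = 0.0185 to 0.119). The count of genes whose shift differed between the tissues, 0, was 107 in DESeq2 and 0 to 1237 with 1 library left out.

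The percentage of genes of similar abundance that changed as far ranged with 1 library left out as follows. For ENSBTAG00000011985 it was 0.0438 to 0.117 in Co and 0.105 to 1.01 in T. For ENSBTAG00000021211 it was 0.0416 to 0.533 in Co, 0.536 to 1.42 in T and 0.0333 to 0.199 in both. For ENSBTAG00000038540 it was 1.26 to 4.04 in Co, 1.27 to 4.39 in T and 0.239 to 0.834 in both, and 2.20 in T with a window of 4-fold.

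The titles give all groups the same replicate numbers. Deviations from the group means of same-numbered Co and T libraries had correlations of −0.0853 to 0.138. Only that of Co-L 3 with T-L 3 exceeded 0.1, so the numbers were not taken to pair them. All 3 Co-L libraries correlated best with the T-L library of their own number (r = 0.072, 0.0924 and 0.138), and none of the 3 Co-H libraries did with T-H. With the replicate block the tissue difference of ENSBTAG00000011985 was 0.78 (edgeR adjusted p = 0.0836), its percentage in T was 0.19, and 0 genes instead of 3 passed over both tissues. With the block within fertility the tissue difference was 0.76. Counts of 13 to 19 in Co-L limit the precision of the Co change of ENSBTAG00000011985.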
